A study of Mus musculus with 5 samples.

Results

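High-coverage CpGs of mouse sperm DNA were examined: the autosomal CpGs that had at least 200 bisulfite reads, strands summed, in each of 5 libraries and lay outside 3 repeat windows. The windows left out were chr9:3000000-3039000, chr2:98661500-98668000 and chr17:39842900-39848900 of the GRCm38 build. The CpGs were chosen by coverage, a measured value. The rule kept 4946 CpGs, 0.0388% of the 12732465 autosomal CpGs listed in any library. The libraries were 2 from sperm of C57BL/6 mice aged 18 months (old replicates 1 and 2) and 3 from sperm of C57BL/6 mice aged 2 months (young replicates 1 to 3). In both groups the sperm were collected by swim-out from the cauda epididymis, where mature sperm are stored, and bisulfite libraries were made from their genomic DNA. No label ties a library to its own animal, and p-values accordingly speak of the spread among these 5 libraries, which may be technical.

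Bisulfite turns unmethylated cytosines into uracil, read as T, and leaves 5-methylcytosine as C, so the share of reads with C at a CpG is its methylation level. Mature sperm carry a highly methylated genome, with low levels at many CpG-rich promoters and at the imprinted regions that are methylated only in oocytes. Tandem repeats are a known difficulty for such data: a reference genome holds few of the copies of a satellite array, and reads from the many other copies are then placed on those few, which raises coverage there.

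Reads over listed CpG cytosines numbered 90716510 and 90640296 in old replicates 1 and 2 and 84117315, 67774094 and 97769462 in young replicates 1 to 3. All read sums and read shares here add coverage over CpGs, so a read that spans several counts at each. Mitochondrial cytosines, a measure of incomplete conversion, were read as methylated at 0.435% to 0.469% in old and 0.415% to 0.662% in young libraries. Imprinted genes were read at listed CpGs within 1000 bp of an annotated end, at the less methylated end of each gene. That choice can only lower the levels, and the end need not be the promoter. At 12 genes with regions methylated in oocytes and not in sperm, pooled methylation was 25.5% and 23.6% in old libraries. In young libraries it was 21.3%, 15.0% and 32.2%, and 9 of the 12 genes were under 50% over all libraries. The exceptions were Mest at 62.7%, Snrpn at 76.7% and Airn at 92.6%. Of the 3 paternally methylated genes, 2 had listed CpGs within 1000 bp of an end: H19 was at 68.4% and Rasgrf1 at 0.0%. These are also levels of the less methylated end, which need not be the imprinted region. Nnat alone held 69.7% of the reads over the 12 oocyte-methylated genes. Without it the pooled level of the other 11 was 42.8% and 32.2% in old libraries and 35.6%, 34.7% and 48.9% in young ones, so young replicate 2 was lowest only with Nnat, and young replicate 3 was highest with and without it. Coverage and read share were used to choose the CpGs and are given without a test; methylation was not used by the rule.

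Few of the high-coverage CpGs were very deep, and most were read almost wholly from 1 strand. The shallowest library held under 400 reads at 4784 of the 4946 and 400 or more at only 162. Of the 4946, 1771 had under 220 reads in the shallowest library, with a mean methylation of 88.6%, and 2551 CpGs just outside the rule had at least 180, with 88.3%. The 5 CpGs nearest to the minimum on the inside all had 200 reads, and the 5 on the outside had 1 fewer. At 98.95% of the CpGs under 400 reads, at least 90% of all reads came from 1 DNA strand, compared with 46.3% at those of 400 or more. In the left-out windows that share was 29.9% on chromosome 9, 27.3% on chromosome 2 and 0.0% on chromosome 17. All 4809 such one-strand CpGs favoured the same strand in every library, and 47.8% of them favoured the forward strand. One-strand reading was common at lower coverage too, with 98.3% of the other CpGs of 100 reads or more, 97.6% from 50 to under 100 and 85.3% from 10 to under 50. The rule was meant for collapsed repeats outside satellites. The share read from 1 strand was higher than in any of the left-out repeat windows. Depth was far lower than in 2 of the windows and near that of the third. The median of the shallowest library was 230 reads over the high-coverage CpGs. It was 1380 reads in the chromosome 9 window, 9837 in the chromosome 2 window and 241.5 in the chromosome 17 window. The CpGs are therefore named here by their rule, and the deepest are described apart.

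**Figure D1:**
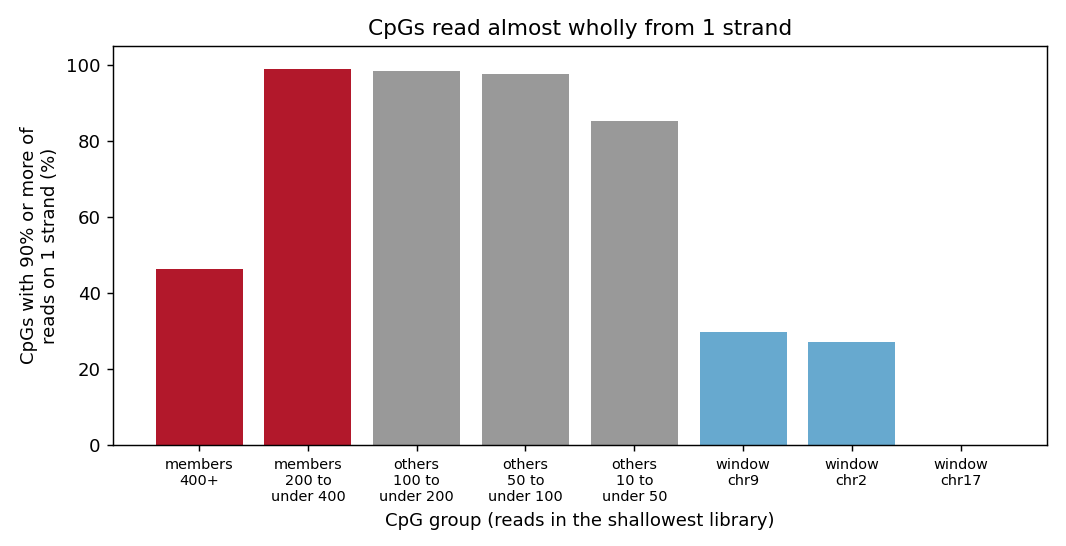
Share of CpGs with at least 90% of their pooled reads on 1 strand (percent, y axis), by reads in the shallowest library (x axis), for the high-coverage CpGs (members, red), other CpGs (grey) and CpGs of 200 or more reads in the left-out windows (blue). The CpGs from 200 to under 400 reads stand at 98.95%, those of 400 or more at 46.3% and the left-out windows at 29.9% or lower.

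The CpGs were scattered. They fell in 1736 of the 2413 autosomal 1 Mb loci with any CpG read 10 times or more in every library, and 585 loci held 1 such CpG, 37 held 10 or more, and the median was 2. Joined where neighbours lay within 10 kb, they formed 3337 stretches, of which 2506 were single CpGs and 68 held 5 or more. Genes of the RefSeq table held 44.0% of them, near the 43.6% of the other 940211 autosomal CpGs read 10 times or more in every library. Protein-coding genes held 1695, lncRNA genes 504 and tRNA genes 4. The first 5 Mb of annotated sequence on a chromosome, next to the centromere, held 5.52% of them and 3.85% of the other CpGs.

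Promoter windows (250 bases before to 50 after each gene start, sequences from RefSeq on GRCm38.p6) held 55 of the high-coverage CpGs, or 1.11%, against 0.185% of the other CpGs. Of the 55, 47 lay in the 1 island shared by Tmem267 and 3110070M22Rik, and the 8 elsewhere made up 0.162% of all high-coverage CpGs, near the share of the other CpGs. The 55 lay in 6 windows, and 5 of them are shown because they span the whole range of levels and let the sequence around such CpGs be seen. The high-coverage CpGs are in capitals, and each sequence runs 5′ to 3′ on the strand of its gene. All 1912 CpGs with at least 10 reads in every library that lay in promoter windows were CG in these sequences.
Tmem267: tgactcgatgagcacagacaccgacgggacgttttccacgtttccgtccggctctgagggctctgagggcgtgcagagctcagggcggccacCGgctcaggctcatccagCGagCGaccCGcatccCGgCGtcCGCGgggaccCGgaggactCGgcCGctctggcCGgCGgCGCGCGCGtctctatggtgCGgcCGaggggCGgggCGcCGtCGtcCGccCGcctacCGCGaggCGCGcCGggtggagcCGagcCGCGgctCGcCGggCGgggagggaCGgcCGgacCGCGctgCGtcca
Npr3: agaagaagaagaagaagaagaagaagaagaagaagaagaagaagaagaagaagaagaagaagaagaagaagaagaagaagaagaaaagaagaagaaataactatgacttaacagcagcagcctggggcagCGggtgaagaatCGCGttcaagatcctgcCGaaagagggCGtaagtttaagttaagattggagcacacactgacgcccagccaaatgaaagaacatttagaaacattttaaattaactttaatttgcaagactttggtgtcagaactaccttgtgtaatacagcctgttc
Gm32846: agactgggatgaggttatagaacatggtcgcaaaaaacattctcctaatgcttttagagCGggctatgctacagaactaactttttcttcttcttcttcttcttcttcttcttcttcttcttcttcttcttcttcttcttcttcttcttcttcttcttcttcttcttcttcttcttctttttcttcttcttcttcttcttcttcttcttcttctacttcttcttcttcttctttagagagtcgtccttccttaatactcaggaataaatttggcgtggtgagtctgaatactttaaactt
Caly: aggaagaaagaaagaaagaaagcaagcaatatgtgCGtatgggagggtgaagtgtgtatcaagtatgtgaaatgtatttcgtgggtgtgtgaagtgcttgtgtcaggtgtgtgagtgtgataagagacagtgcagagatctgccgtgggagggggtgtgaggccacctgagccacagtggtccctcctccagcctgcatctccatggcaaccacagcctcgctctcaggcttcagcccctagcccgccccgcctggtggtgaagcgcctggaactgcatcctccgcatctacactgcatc
Bod1l: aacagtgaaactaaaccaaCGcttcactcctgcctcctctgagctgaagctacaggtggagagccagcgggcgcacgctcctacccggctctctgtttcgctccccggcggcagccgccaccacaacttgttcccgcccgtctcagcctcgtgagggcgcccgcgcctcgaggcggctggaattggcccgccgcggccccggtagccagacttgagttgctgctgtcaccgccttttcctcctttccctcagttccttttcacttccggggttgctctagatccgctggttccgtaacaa

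The window of Tmem267, a gene for a transmembrane protein (chr13:119488223-119488522, plus strand), held 41 high-coverage CpGs among its 50, where the median promoter window has 7. It overlaps the window of 3110070M22Rik, a lncRNA gene read from the other strand. These 41 CpGs averaged 98.9% and 99.0% methylation in old libraries and 98.7%, 98.4% and 99.2% in young ones, so a GC-rich promoter was almost fully methylated at both ages. Their mean coverage was 581 and 599 reads in old libraries and 468, 514 and 522 in young ones. Coverage in both old libraries thus lay above that in all young ones, while as a share of autosomal reads the stretch had 0.0305% and 0.0314% in old libraries and 0.0265%, 0.0364% and 0.0255% in young ones, which overlap. Unlike most others, these CpGs were read from both strands, with 30.2% of reads on the forward strand. The 5 CpGs in the window of Npr3, which encodes the clearance receptor for natriuretic peptides (chr15:11907322-11907621, minus strand), were at the other extreme. They averaged 0.518% and 0.630% in old libraries and 0.348%, 0.690% and 0.688% in young ones.

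The single high-coverage CpG in the window of Bod1l (chr5:41844266-41844565, minus strand) was also near 0, at 1.28% and 0.837% in old libraries and 0.368%, 0.365% and 0.306% in young ones. Both old libraries lay above the young ones there, on a handful of methylated reads in each library. The CpG in the window of Caly, a gene for a neuronal membrane protein (chr7:140082499-140082798, minus strand), was intermediate, with 39.4% and 46.4% in old and 45.0%, 39.1% and 48.6% in young libraries. The CpG in the window of Gm32846, a predicted gene (chr7:17426771-17427070, minus strand), had 94.8% and 96.8% in old and 96.7%, 95.4% and 93.6% in young libraries. Levels at Caly and Gm32846 overlapped between the ages.

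Long runs made only of A and G, or on the other strand only of C and T, lay beside some of these CpGs. The Npr3 window holds a run of 97 bases of A and G that ends before its first high-coverage CpG, and 0.0510% of the 31396 autosomal promoter windows hold a run of either kind as long. The Gm32846 window holds a run of 134 bases of C and T after its CpG, a length reached in 0.0127% of windows, and the Caly window a run of 22 bases of A and G ahead of its CpG, reached in 4.73%. In all 3 the reads came from the strand that carries the A and G: none of the Npr3 and Caly reads were on the forward strand, and 99.5% of the Gm32846 reads were. The Bod1l window has a run of 19 bases of C and T, as long as in 8.06% of windows, and 2.60% of its reads were on the forward strand, so there the strand read was the one that carries C and T. The Tmem267 window, read from both strands, has no run longer than 9, under the median of 11 over all windows. The overlapping window of 3110070M22Rik, read from both strands as well, has a run of 24 bases of A and G, a length reached in 3.43% of windows. This look at runs was chosen after the sequences were seen, and whether they bear on coverage was not tested.

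Some stretches had regular spacing. In 16 of the 68 stretches of 5 or more CpGs, at least 80% of the gaps between neighbours were equal: 3 bp in 5 stretches, 4 bp in 2, 5 bp in 2, 6 bp in 2 and 8 bp in 5. Of the high-coverage CpGs 20.8% had another CpG read 10 times or more in every library within 10 bp, against 14.8% of the other CpGs. Equal spacing was not counted among the other CpGs. In Fggy, which encodes a carbohydrate kinase, 16 CpGs stood 3 bp apart (chr4:95663391-95663436), with 99.0% and 98.5% methylation in old and 98.4%, 98.7% and 99.2% in young libraries. In Zswim5, 14 CpGs stood 3 bp apart (chr4:116880861-116880900), with 98.7% and 98.9% in old and 98.95%, 98.9% and 99.2% in young libraries. In Fto, which encodes an RNA demethylase, 12 of the 14 gaps between its 15 CpGs were 3 bp (chr8:91483545-91483630), with 97.7% and 97.9% in old and 97.5%, 98.6% and 97.2% in young libraries. These 3 stretches were nearly fully methylated, and within each stretch no 2 libraries stood more than 2 points apart.

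The stretches in Igk and Slc9a9 were less uniform. In Igk, the immunoglobulin kappa light chain locus, 17 CpGs mostly 8 bp apart (chr6:68292112-68292299) had 85.1% and 82.9% in old libraries and 74.1%, 70.8% and 83.1% in young ones. Old replicate 2 and young replicate 3 were nearly equal, and young replicates 1 and 2 lay lower. In Slc9a9, which encodes an endosomal sodium/proton exchanger, 10 CpGs 3 bp apart (chr9:95011624-95011651) had 96.0% and 88.5% in old and 85.4%, 82.1% and 89.6% in young libraries, which overlap. CpGs a few bases apart share reads, so each such stretch is close to 1 measurement.

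A small group of high-coverage CpGs was almost unmethylated. Of the 4946, 88 (1.78%) averaged under 20%, 687 (13.9%) lay between 20% and 80%, and 4171 (84.3%) above 80%. Among the other 940211 CpGs the shares were 1.39%, 12.3% and 86.3%, near those of the high-coverage CpGs. A stretch in a cluster of tRNA genes (chr13:23430719-23437026) held 8 CpGs, 4 of them in n-TPagg3, a proline tRNA gene. They averaged 0.67% and 0.64% in old and 0.44%, 0.65% and 0.76% in young libraries. Near Bod1l, 6 CpGs (chr5:41844545-41844601) averaged 1.51% and 0.90% in old and 0.89%, 1.27% and 0.83% in young libraries. The CpG 108 bp from Rtcb, which encodes the tRNA ligase, had no methylated read in old libraries and 0.397%, 0.463% and 0.0% in young ones. Among the highest were 6 CpGs 6 bp apart on chromosome 13 (chr13:107550148-107550178), in Gm31920 and Gm32004, with 99.4% and 99.5% in old and 99.4%, 99.3% and 99.5% in young libraries. Another 6 CpGs 6 bp apart in Map4, a microtubule-binding protein gene, had 99.5% and 99.4% in old and 98.9%, 99.1% and 99.3% in young libraries.

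Gene families were counted by symbol among the genes that hold these CpGs. The share of the other CpGs in each family was not counted, so no family can be called rich or poor in them. Of 623 vomeronasal receptor genes (Vmn) 8 held 8 CpGs, of 1420 olfactory receptor genes (Olfr) 4 held 6, and of 409 zinc finger genes (Zfp) 12 held 23. Cyp genes, which encode cytochrome P450 enzymes, held 9 in 6 genes. Sfi1, a centrosome protein gene, held 2, at 52.7% and 53.4% in old and 51.3%, 54.1% and 54.1% in young libraries. Sp110 and Skint6 held 1 each, and the host transcripts Mir100hg and Mir99ahg together 3. No Speer, Mup, n-R5s, Rnu or Rn, Pramel or Pramef, Nlrp, Defb, H2 or Hist gene held any.

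The deepest CpGs formed 5 stretches that reach 1000 or more reads in the shallowest library. Together their 101 CpGs held 22.8% and 26.6% of the reads over high-coverage CpGs in old libraries and 25.0%, 23.6% and 23.0% in young ones. The deepest lay in the lncRNA gene Gm33838 on chromosome 9 (chr9:35305242-35305582), where 1 of the 10 CpGs had 31722 reads in the shallowest library. Others lay on chromosome 14 (chr14:19415740-19419407, 69 CpGs, 10648 bp from the pseudogene Gm9637), chromosome 12 (chr12:3109883-3110117, 6 CpGs), chromosome 6 within Chl1, a neural adhesion molecule gene (chr6:103649055-103649287, 4 CpGs), and chromosome 15 (chr15:75085688-75086939, 12 CpGs). Summed over the CpGs of the 5, coverage was 421284 and 434060 in old libraries and 438288, 410509 and 434895 in young ones. These sums were nearly level across libraries, whereas listed autosomal reads differed 1.45-fold between the deepest and the shallowest library. Reads over all high-coverage CpGs differed 1.16-fold. Single stretches ranged from 1.04-fold in Gm33838 to 1.30-fold on chromosome 15. In the left-out windows reads ran from 1861938 to 2007215 on chromosome 9, 1530053 to 1605467 on chromosome 2 and 29043 to 108391 on chromosome 17.

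A distance of 234 bp recurred in the stretches of Gm33838 and chromosome 14. It is the commonest distance in the left-out window on chromosome 9 and the known unit length of the mouse major satellite of pericentromeric heterochromatin. In Gm33838 the commonest distance between CpGs within 700 bp of each other was 234 bp, with 3 pairs. In the chromosome 14 stretch 11 pairs lay 234 bp apart, after 13 pairs at 351 bp. The chromosome 12 stretch had 1 pair at 234 bp, its first and last CpG, and no distance occurred there more than once. The chromosome 15 stretch had none, and the chromosome 6 stretch is shorter than this distance. The window on chromosome 9 itself had 152 such pairs of 4354 and that on chromosome 2 had 9 of 660. Pairs at 234 bp also occur without being common: 3 of 2051 in the window on chromosome 17 and 2 of 540 in the stretch of the Sfi1 locus on chromosome 11. With 3 pairs of 45 in Gm33838 and 11 of 802 on chromosome 14, the spacing is a description only.

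**Figure D2:**
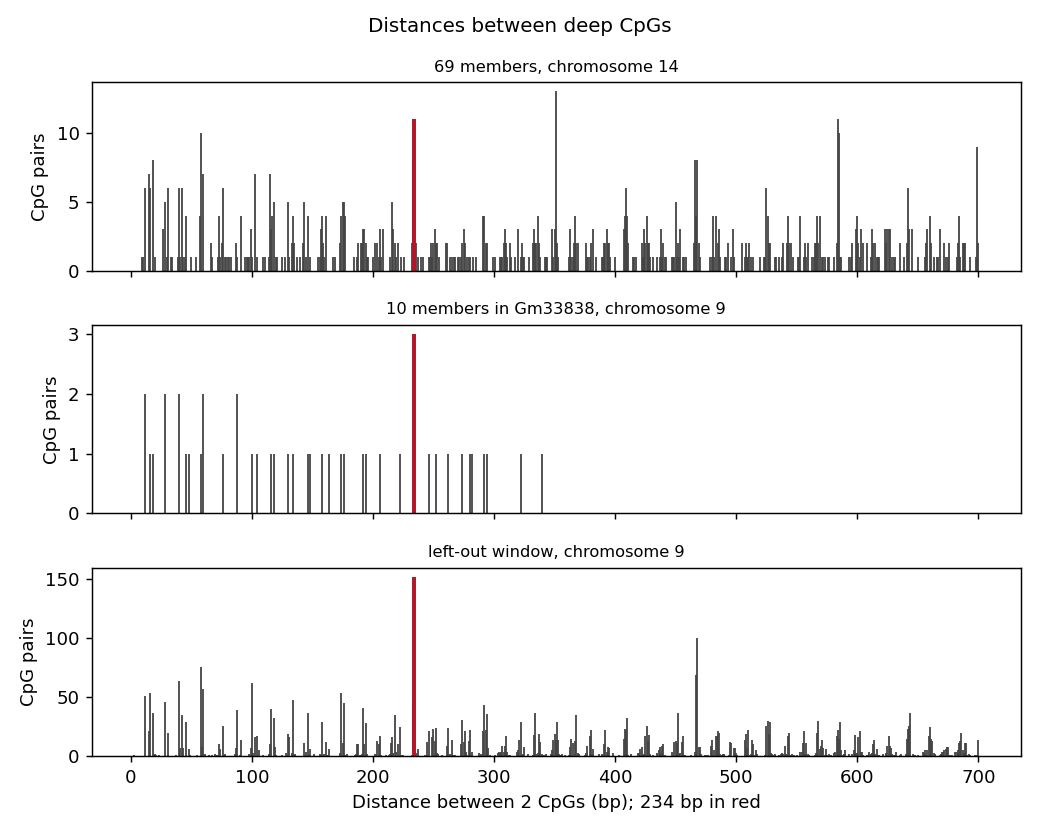
Number of CpG pairs (y axis) at each distance between CpGs, up to 700 bp (x axis), in the chromosome 14 stretch, in Gm33838 and in the left-out chromosome 9 window; 234 bp is in red. The 234 bp distance is the commonest in Gm33838, with 3 pairs, and in the window, with 152, and stands below 351 bp in the chromosome 14 stretch, with 11 pairs against 13.

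Methylation lay between 43.1% and 60.1% in every library in 4 of the 5 deepest stretches. The Gm33838 stretch averaged 52.3% and 53.6% in old libraries and 50.4%, 49.3% and 58.7% in young ones. The chromosome 14 stretch averaged 47.7% and 49.1% in old and 45.7%, 43.1% and 54.8% in young libraries, and the chromosome 12 stretch 53.3% and 54.7% in old and 51.6%, 50.4% and 60.1% in young libraries. In these 3 the old libraries lay within the range of the young ones, young replicate 2 was lowest and young replicate 3 highest. The stretch in Chl1 kept that order, with 56.1% and 57.7% in old and 52.3%, 49.8% and 60.1% in young libraries. The chromosome 15 stretch differed, with 78.2% and 75.6% in old and 76.7%, 74.6% and 76.8% in young libraries, a narrower spread.

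The order of libraries was shared with the left-out windows on chromosomes 9 and 2, and not with that on chromosome 17. Among the 162 CpGs of 400 or more reads, young replicate 3 was highest at 114 and young replicate 2 lowest at 106. In the window on chromosome 9 young replicate 3 was highest at 461 of 475 CpGs, and in that on chromosome 2 at 59 of 66. In the window on chromosome 17 young replicate 3 was instead lowest at all 114, and old replicate 2 highest at 101. Among the 687 high-coverage CpGs of intermediate level, young replicate 3 was highest at 413 and young replicate 2 lowest at 384. Among the 4171 above 80% young replicate 3 was instead lowest, at 1438, and young replicate 2 highest, at 1156. That order was not particular to them: the other 940211 CpGs also had their lowest mean in young replicate 3, at 88.5%. Their highest mean was in young replicate 2, at 89.4%. The part of library makeup in these levels was not tested.

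Over all 4946 CpGs methylation was nearly the same at both ages. The unweighted mean was 88.2% and 88.1% in old libraries and 88.0%, 87.9% and 87.9% in young ones, 88.2% ± 0.0713 against 87.9% ± 0.0394 (SD, n = 2 and n = 3), a difference of 0.274 percentage points. Both old libraries lay above the young ones, but the order did not hold when each CpG was weighted by its reads. The weighted means were 80.3% and 79.2% in old and 78.8%, 78.9% and 81.2% in young libraries. For the 162 CpGs of 400 or more reads the means were 66.6% and 67.1% in old and 64.5%, 63.0% and 70.5% in young libraries, and the old ones lay inside the young range. The other 940211 CpGs stood at 89.3% and 89.2% in old and 89.2%, 89.4% and 88.5% in young libraries. The share of autosomal reads that fell on the high-coverage CpGs was 2.16% and 1.90% in old and 2.21%, 2.75% and 2.06% in young libraries, and these overlapped.

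**Figure D3:**
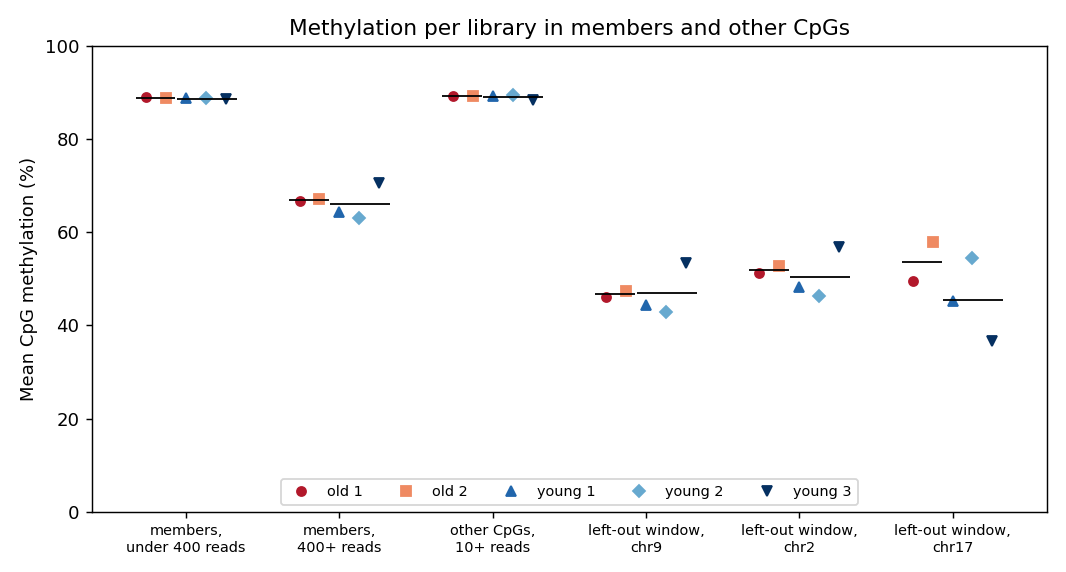
Mean CpG methylation (percent, y axis) in each library, old left of young, for the high-coverage CpGs (members) in 2 coverage classes, the other CpGs with 10 or more reads in every library, and CpGs of 200 or more reads in the left-out windows (x axis); bars are group means. The CpGs of 400 or more reads and the windows on chromosomes 9 and 2 have young replicate 3 highest and young replicate 2 lowest, while the CpGs under 400 reads stand near 89% in every library.

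At single CpGs the comparison of ages gave 1 call, in Gjb2, the gene of the gap junction protein connexin 26. The fit covered 946600 autosomal CpGs, those read 10 times or more in every library, and compared methylated with unmethylated reads in a quasi-binomial model whose dispersion was shared in part across CpGs. Calls had a Benjamini-Hochberg adjusted p under 0.05 together with 10 points or more between the group means. Of the 4946 high-coverage CpGs 1 was called, lower in old sperm, where 0.00412% of all 946600 were called. The counts are too small to set against each other. At an unadjusted p under 0.05 there were 98 (1.98%), of which 76 were higher in old sperm, against 2.99% of all CpGs tested. The direction among all CpGs at that p is not given here, and neighbouring CpGs share reads, so the 76 have no background. The limma fit called none, with 170 (3.44%) at that p, against 4.30% of all. Both old libraries lay above all young ones at 441 (8.92%), where 6.99% of all CpGs tested did, and below them at 391 (7.91%), where 7.54% did.

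The called CpG (chr14:57101700) lies in Gjb2 (57098602 to 57104702, minus strand), 3002 bp into the gene. Methylation was 25.5% and 30.1% in old libraries, on 263 and 209 reads, and 51.0%, 54.9% and 48.8% in young ones, on 249, 277 and 301 reads. The groups did not overlap, at 27.8% ± 3.30 and 51.6% ± 3.06 (SD, n = 2 and n = 3), and the difference was -23.8 points (quasi-binomial model, adjusted p = 0.0242). Whether the CpG is exonic was not analysed here. Forward-strand reads made up 98.8% of its coverage.

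CpGs next to it had lower values in old libraries too, without passing the test. From the called CpG to 200 bp beyond it 7 CpGs had 10 reads or more in every library, and at all 7 both old libraries lay below all young ones, by 10.1 to 23.8 points on average. At 70 bp the levels were 47.2% and 61.6% in old and 74.9%, 76.1% and 78.3% in young libraries, with an adjusted p of 0.0552. At 188 bp they were 61.3% and 82.1% in old and 94.5%, 89.1% and 93.9% in young libraries, with an adjusted p of 0.442. None of these 6 neighbours was called on its own, and neighbouring CpGs share reads. The 6 CpGs on the other side, at -563 to -400 bp, had 85.3% to 100% in every library, with differences of -6.90 to 2.94 points on 10 to 40 reads. Farther out on the side of the 7, 4 CpGs at 1380 to 1666 bp differed by -13.3 to 3.05 points. At 1380 bp the levels were 27.5% and 45.7% in old and 52.0%, 25.5% and 72.1% in young libraries, which overlap, and at 1496 bp both old libraries lay below the young ones, with a difference of -9.58 points. At the other 2 the libraries overlapped, and the adjusted p was 1.0 at each of the 4. The other high-coverage CpG of that locus, near Lats2, had 96.2% and 97.4% in old and 95.2%, 97.3% and 96.9% in young libraries.

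**Figure D4:**
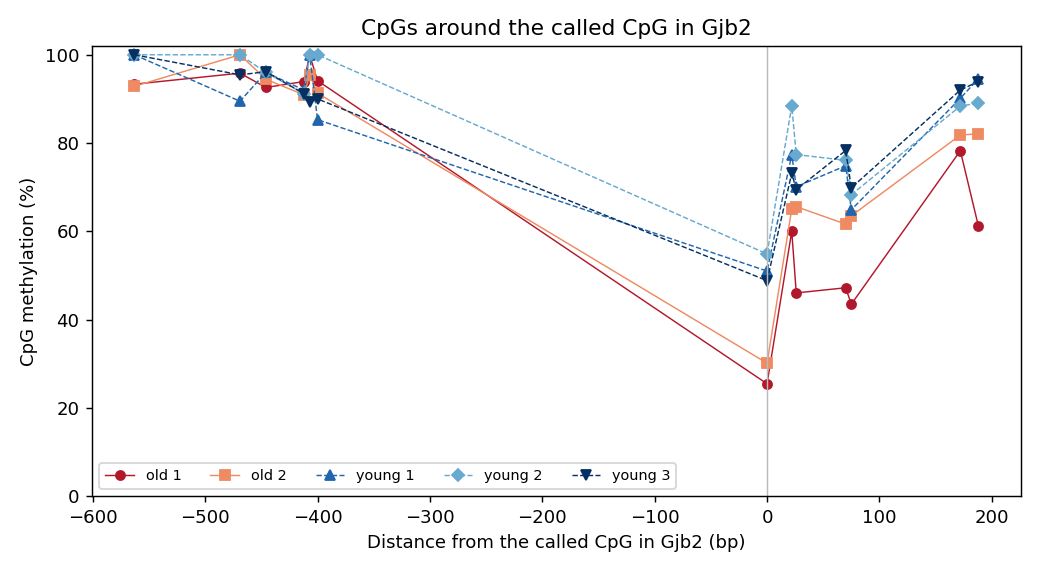
Methylation (percent, y axis) of CpGs with 10 or more reads in every library by distance from the called CpG in Gjb2 (bp, x axis), 1 line per library, old solid and young dashed. At the called CpG and the 6 CpGs after it the 2 old libraries lie below the 3 young ones, and before it all 5 lie between 85.3% and 100%.

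The call in Gjb2 rests on few libraries. Its direction and size stayed when any library was left out, at -21.4 to -26.1 points, but it was no longer called without young replicate 1 (adjusted p = 0.402), old replicate 1 (adjusted p = 1.0) or old replicate 2 (adjusted p = 0.102) by the same model. It was also not called by limma (adjusted p = 1.0), nor with the prior of the dispersion taken from all CpGs (adjusted p = 1.0). In simulated reads with nothing changed, the fit that called it still made 7 calls, 0 of them at high-coverage CpGs. With 200 CpGs lowered, unchanged CpGs made up a larger share of its calls than an adjusted p under 0.05 allows.

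Summed over 1 Mb, the quasi-binomial model called no locus. Of 1736 loci 0 were called, where 0.0% of the 4149 rows tested were, 33 (1.90%) had an unadjusted p under 0.05, 18 of them higher in old sperm, against 1.71% of all rows, and the smallest adjusted p was 1.0. The limma fit also called 0, with 44 (2.53%) at that p, against 1.54% of all rows. The direction among all rows at that p is not given here. Both old libraries lay above all young ones at 131 loci (7.55%), where 8.44% of all rows did. They lay below all young ones at 134 (7.72%), where 4.24% of all rows did. The 4149 rows include these 1736, which hold a median of 2 CpGs. The rest sum the other CpGs, far more per row, so the shares compare rows of unlike counting error.

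The 12 loci with the most high-coverage CpGs covered 343 of the 4946 and fell into 2 kinds. Those holding Gng2 on chromosome 14 (73 CpGs), Sfi1 and Osbp2 on chromosome 11 (57), Gm46840 on chromosome 4 (33) and Igk on chromosome 6 (19) differed between young libraries. The gene names mark the 1 Mb loci. Genes held only 1 of the 73 CpGs, 3 of the 57 and 4 of the 33, while Igk held all 19. The Gng2 locus, with 69 of its CpGs in the deep stretch described above, averaged 49.7% and 50.9% in old and 47.8%, 45.1% and 56.3% in young libraries. The Sfi1 locus averaged 63.1% and 62.3% in old and 58.4%, 56.3% and 67.4% in young libraries, and the Gm46840 locus 66.1% and 64.4% in old and 62.4%, 57.6% and 66.8% in young libraries. In these 3 the old libraries lay inside the young range. The Igk locus averaged 86.4% and 84.2% in old and 76.2%, 73.2% and 84.3% in young libraries, a difference of 7.39 points that was not called (adjusted p = 1.0). Without young replicate 3 the Igk locus was called, at 10.7 points on summed reads (adjusted p = 0.0261).

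The other 8 loci were steadier. The Tmem267 locus (49 CpGs) averaged 98.8% and 98.9% in old and 98.6%, 98.3% and 99.0% in young libraries. The loci of Fto and Chd9 (18), of Zswim5, Ipp and Nasp (17), of Fggy (16) and near Gm40810 (15) averaged between 92.5% and 99.2% in every library. The locus near AY761185 (17) averaged 90.8% and 89.8% in old and 87.6%, 86.6% and 89.2% in young libraries, and the old ones lay above, by 2.51 points. The locus near Olfr769 (15) averaged 92.6% and 91.6% in old and 88.9%, 90.5% and 91.7% in young libraries, which overlap. The locus near Bod1l (14) averaged 31.9% and 32.6% in old and 32.0%, 33.0% and 30.5% in young libraries, and it mixes nearly unmethylated CpGs with methylated ones.

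**Figure D5:**
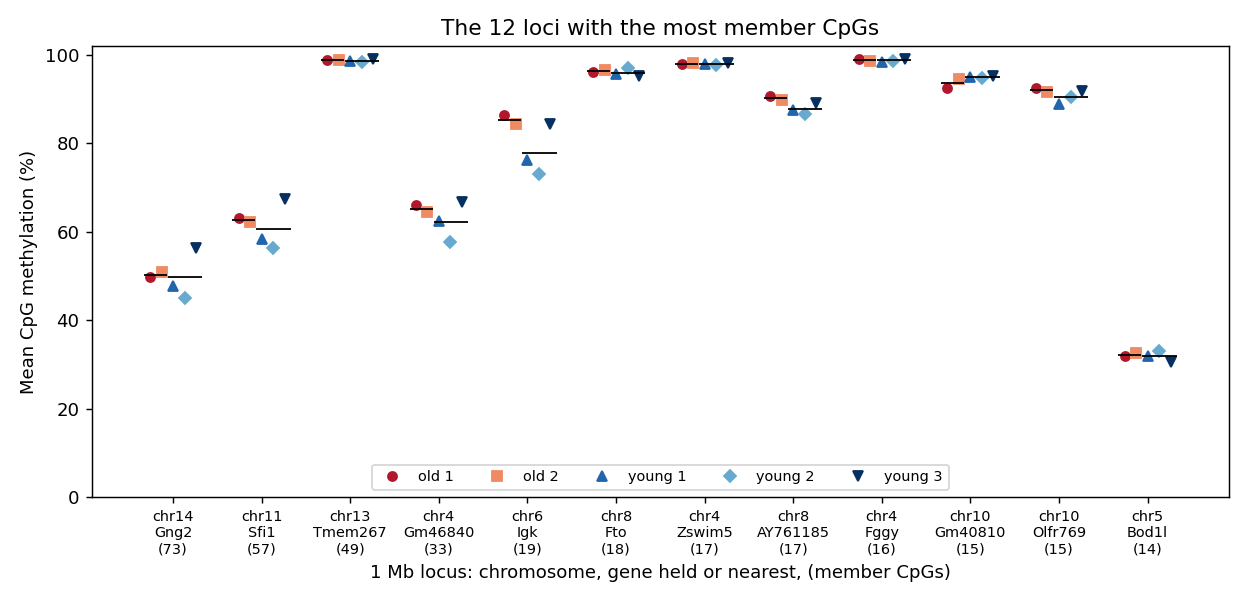
Mean methylation (percent, y axis) of the high-coverage CpGs in the 12 loci that hold the most of them (x axis: chromosome, gene held or nearest and, in brackets, the number of CpGs), 1 point per library, old left of young; bars are group means. At the Gng2, Sfi1 and Gm46840 loci, where genes held few of the CpGs, the old libraries lie within the range of the young ones. At Tmem267 all 5 lie between 98.3% and 99.0%.

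Loci with the smallest p were small. Higher in old libraries, with the smallest p, were a locus of 3 CpGs near Gm5594 on chromosome 7, with 70.0% and 62.2% in old and 53.8%, 54.5% and 60.3% in young libraries, 2 CpGs near Gm25836 on chromosome 4, with 87.9% and 87.1% in old and 82.7%, 81.1% and 79.997% in young libraries, and 1 CpG near Mir3964 on chromosome 15, with 98.8% and 99.5% in old and 94.7%, 96.9% and 94.7% in young libraries. In each the groups did not overlap. Lower in old libraries were the Gjb2 locus, with 60.9% and 63.8% in old and 73.1%, 76.1% and 72.8% in young libraries, 1 CpG in Tbc1d14, a gene of autophagy, with 76.4% and 77.3% in old and 81.5%, 82.8% and 86.1% in young libraries, and 1 CpG near Dthd1, with 93.9% and 96.5% in old and 98.2%, 98.6% and 98.0% in young libraries. None was called by the quasi-binomial model (adjusted p = 1.0 for each). Where a gene is only near, the closest CpG lay 10939 bp from Gm5594, 27988 bp from Gm25836, 58562 bp from Mir3964 and 4002 bp from Dthd1.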

How the data were processed

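Sperm DNA of 5 libraries was bisulfite sequenced. methylKit 1.4.0, Bismark 0.16.3, Trim Galore 0.4.3 and the build GRCm38 (mm10) are named per the submitters' processing notes; their settings and any removal of duplicates were not given in those notes as used here. The deposited files give, per the file headers, each cytosine's coverage as a count of reads and the percent of these with C and with T, and no cytosine under 5 reads is listed. The product of percent and coverage was a whole number of reads, within the 0.005 points by which the listed percent is rounded, at 100% of cytosines. Reads of one molecule can recur, so depth covers counting error only.

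Strands were summed per CpG and the rule was applied to the sums. Genes and promoter sequences came from RefSeq tables of GRCm38.p6; no genome sequence was used, so repeats were not annotated. The locus fit held 1 row per 1 Mb for high-coverage CpGs and 1 for the others read 10 times or more in every library. Each feature was fitted with a quasi-binomial logistic model, its dispersion moderated by squeezeVar of limma 3.58.1 (trend on coverage, floor of 1), with Benjamini-Hochberg adjustment over the whole table. The prior of the dispersion used all rows for loci. For CpGs it used only those whose expected binomial variance reached 2 reads. That was decided after the design was fixed and with both results seen: in simulations the prior from all 946600 CpGs found 0 of 200 CpGs lowered by 10, 20 or 30 points. The prior used found 17.5%, 93.5% and 99.0%, with 16, 42 and 43 calls among unchanged CpGs, and made 7 calls where nothing was changed. Unchanged CpGs thus made up a larger share of its calls than an adjusted p under 0.05 allows. The locus fit found 46.5%, 100% and 100% of 200 lowered loci. All lowered CpGs and loci were high-coverage ones of intermediate or high methylation, so these rates do not describe the other CpGs tested. Simulated libraries varied independently at each feature. Other software was R 4.3.3, matplotlib 3.10.9, scipy 1.17.1, pandas 2.3.3, numpy 2.4.6 and Python 3.11.15.

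The CpGs and gene lists were chosen with earlier results of these data known. The naming rule took the 12 loci with the most high-coverage CpGs, any called locus or CpG, the 3 higher and 3 lower loci with the smallest p, the 2 loci with the highest and the 2 with the lowest mean, the 5 CpGs on each side of the minimum, and families by symbol. Stretches, promoters and the neighbours of the called CpG were described beyond it. Alternatives were the coverage minimum (100 and 400 reads), both strands listed, each library left out, weighting, a plain binomial model, limma on log2((methylated + 1)/(unmethylated + 1)), no trend, 5 points for a call, 10 kb stretches, the largest locus left out, the total behind the read share and the replicate number; the dispersion prior and the CpGs under 400 reads alone were added after seeing the data.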

Additional observations from a re-analysis of the deposited data

How the results depend on the processing

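The count of called CpGs, 1, was the setting-dependent result: it was 15 with a minimum of 100 reads, 13 with a plain binomial model, 2 with no trend, and 0 with a minimum of 400 reads, with both strands listed, with limma, with the prior from all CpGs and with the replicate block. Leaving out 1 library gave 0 to 21, with 21 without young replicate 3 (19 higher in old sperm). The count of called loci, 0, was 1 with the binomial model and 0 to 1 when a library was left out, the 1 being Igk without young replicate 3. The difference in read share, -0.310 percentage points, was -1.21 with a minimum of 100 reads. The cause of these changes was not tested. A minimum of 100 reads adds 32111 CpGs to the set, so its count and read share belong to a larger set. Several of the CpGs called by the binomial model, and without young replicate 3, were neighbours in the Igk stretch. The share of all CpGs called under each setting is not given here, so the counts show nothing particular to the high-coverage CpGs. For the mean, the read share and both counts, 41 alternatives in all were judged the same and 16 moved. The mean was judged by its sign alone, so 0.868 points with a minimum of 400 reads counted as the same as 0.274. The read share and the counts were judged by size alone.

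Several locus differences near 0 changed sign. On summed reads, leaving out a library gave -1.78 to 3.79 points at the Gng2 locus (0.411 with all), -0.575 to 5.27 at Sfi1, -0.250 to 0.253 at Fggy and -0.110 to 0.0691 at Npr3. With a minimum of 100 reads the differences were -0.308 at Fggy, -0.111 at Map4, -0.485 at Gm31920, -0.894 at Npr3 and 2.58 near Rtcb; with both strands listed they were -0.0845 at Fto, 2.55 at Zswim5 and -0.349 near Bod1l.

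Between same-numbered libraries of the ages, deviations from the group means had correlations of 0.0350 and -0.108. With only 2 old libraries, their deviations mirror each other, so this check cannot tell whether the numbers pair libraries. With the replicate block 0 loci and 0 CpGs were called, the smallest adjusted p of a locus was 5.43e-05 for a difference under 10 points, and the Gjb2 difference was -25.1 points (adjusted p = 0.135). At 200 reads counting error alone spans a few points at intermediate levels, and only 2 old libraries enter each test.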
